A study of Mus musculus with 12 samples.

Results

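The genes described here carry out antigen presentation on major histocompatibility complex (MHC) class II molecules. They are the rows of the deposited table whose symbol is H2-Aa, H2-Ab1, H2-Eb1, H2-DMa, H2-DMb1, Cd74 or Ciita, which gave 7 of 27825 genes, and all 7 passed the filter on low values (a mean of at least 10 normalized counts over the 12 libraries, met by 22238 genes). The libraries are bulk RNA-seq of sorted cells of mesentery (Mes, the fold of peritoneum that holds the gut and its vessels) and of epididymal fat (Epi). All mice were male ROSA26-eYFP+/+ Cdh5-CreERT2+, in which Cre under the control of Cdh5, an endothelial cadherin gene, turns on a yellow fluorescent protein when tamoxifen is given. Tamoxifen was fed to every animal at 6 weeks of age for 2 weeks, and from 8 weeks the mice ate normal chow (NC, 5.8% fat) or a high fat diet (HFD, 60% fat) for 12 to 13 weeks. The 4 groups, NC Mes, HFD Mes, NC Epi and HFD Epi, have 3 libraries each, lettered A, B and C, and each library pools tissue of 6 mice that was digested with actinomycin D, a blocker of transcription. The labels speak of 2 independent replicates while the titles give 3 letters, so p-values measure the spread between these libraries, which may be partly technical.

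MHC class II molecules are pairs of an alpha and a beta chain that display peptides from endocytosed proteins to CD4 T cells. Macrophages, dendritic cells and B cells make them, and dendritic cells and B cells do so constitutively. Endothelial cells can be induced to make them by interferon gamma, which acts in part through Irf1 on the gene of the transactivator Ciita. Ciita does not bind DNA itself but joins the factors that occupy the conserved X and Y boxes upstream of class II genes. The new chains bind the invariant chain, encoded by Cd74, and H2-DM later helps to exchange its remnant for a peptide.

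The promoters are shown first because class II genes are known for these shared boxes. The RefSeq table of promoters (GRCm38.p6, 250 bases before to 50 bases from each start) had windows for 4 of the 7 members, namely H2-Aa, H2-Eb1, H2-DMa and H2-DMb1. The stretches below run from 120 bases before the start to 30 bases from it, read 5′ to 3′ on the gene's strand. Capitals mark the X motif CTNGNAAC and the Y motif TGATTGG.
H2-DMb1, chr17:34153071-34153220, plus strand: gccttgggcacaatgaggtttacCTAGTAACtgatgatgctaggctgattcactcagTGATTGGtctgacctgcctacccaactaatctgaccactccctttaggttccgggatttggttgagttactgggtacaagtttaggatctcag
H2-Aa, chr17:34287794-34287943, minus strand: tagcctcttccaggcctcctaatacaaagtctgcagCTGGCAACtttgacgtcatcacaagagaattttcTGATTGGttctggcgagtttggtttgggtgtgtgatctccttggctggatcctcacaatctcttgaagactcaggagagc
H2-Eb1, chr17:34305747-34305896, plus strand: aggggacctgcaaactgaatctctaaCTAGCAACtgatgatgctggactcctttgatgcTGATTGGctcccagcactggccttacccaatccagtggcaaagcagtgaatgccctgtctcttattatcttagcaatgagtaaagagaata

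The X motif lay 84, 94 and 97 bases before the start in H2-Aa, H2-Eb1 and H2-DMb1, and the Y motif followed it on the same strand after 26, 25 and 26 bases. Both motifs were searched on both strands, and their letters and the allowed gap of 15 to 35 bases were chosen after the members' windows had been seen. Over all 32851 windows, 13.2% held the X motif, 7.82% the Y motif and 0.0700% (23 windows) held X followed by Y within that gap. These windows belonged to 20 genes, most of them outside the class II lists, such as Plk1, Ubb and Mark3. H2-Ob, which encodes the beta chain of the H2-DM inhibitor H2-O, was also among them. The windows of H2-Eb2, H2-Oa and H2-DMb2 did not hold the pair. Neither motif was found in either window of H2-DMa, which says only that these letters are absent from those windows. A match is a description of sequence and not a measured binding site.

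Library totals ran from 8348897 to 25397963 reads, and 3 reads correspond to 2.12 to 4.22 normalized counts depending on the library, which covers counting error only. Even the member with the fewest reads, Ciita, had at least 31 reads in each library. The endothelial markers Cdh5 and Pecam1 were detected in all 12 libraries, which does not show what share of the sorted cells was endothelial. The sum of 10 endothelial marker genes ranged 3.76-fold, from 37608 to 141465 normalized counts. It was 79036 in NC Epi B and 37608 to 70030 in HFD Epi. In those libraries it was below the macrophage and leukocyte sum, most of which came from Lyz2. That gene alone gave 68477 of 86603 in NC Epi B and 100031 of 136760 in HFD Epi B, so these sums do not rank the cell types. Markers of immune cells were present as well and varied far more. The sum of 10 macrophage and leukocyte markers lay between 1502 and 7541 normalized counts in NC Mes, 4136 and 23914 in HFD Mes, 6155 and 86603 in NC Epi, and 136760 and 344927 in HFD Epi. In that list Adgre1 was at 0 in NC Mes B and Fcgr1 in HFD Mes B. The sum of 6 B cell markers was 6960 in HFD Mes C and between 69.3 and 1820 in the other libraries, with Cd79b at 0 in HFD Mes B and Pax5 at 0 in NC Mes B, HFD Mes A and HFD Epi B. These libraries are bulk samples, so fewer cells of a type and less RNA per cell cannot be told apart.

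The class II chains were measured in every library, and the highest library exceeded the lowest by 127-fold for H2-Aa, 110-fold for H2-Ab1 and 125-fold for H2-Eb1. H2-Aa, the alpha chain of the I-A molecule, had 658, 634 and 2695 normalized counts in NC Mes A, B and C and 2073, 2029 and 12579 in HFD Mes. In epididymal fat it had 3357, 29834 and 1232 in NC Epi and 22758, 22167 and 80564 in HFD Epi. Within each group 1 library stood well above the other 2, namely replicate C of NC Mes, HFD Mes and HFD Epi, and replicate B of NC Epi. H2-Ab1, the beta chain that pairs with H2-Aa, had 1231, 1234 and 3554 in NC Mes, 3602, 2643 and 17658 in HFD Mes, 5061, 43038 and 1764 in NC Epi and 24681, 34443 and 135623 in HFD Epi. H2-Eb1, the beta chain of the I-E molecule, had 368, 414 and 1314 in NC Mes, 1487, 807 and 8754 in HFD Mes, 2156, 18120 and 862 in NC Epi and 13267, 13049 and 46008 in HFD Epi. The same library was highest in each group for all 3 chains, and NC Epi B lay inside the range of HFD Epi for each of them.

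Cd74, the invariant chain that holds new class II molecules and guides them to endosomes, was the most abundant member, also per length of exon. It had 1487, 1805 and 6420 normalized counts in NC Mes and 4888, 3325 and 41096 in HFD Mes. In epididymal fat it had 12089, 102029 and 3649 in NC Epi and 69394, 80044 and 284747 in HFD Epi. Group means were 3237 ± 2761 (SD, n = 3) in NC Mes, 16436 ± 21370 in HFD Mes, 39256 ± 54527 in NC Epi and 144728 ± 121377 in HFD Epi. In HFD Mes and NC Epi the SD exceeded the mean.

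H2-DMa and H2-DMb1 encode the chains of H2-DM, the peptide exchange factor. H2-DMa had 166, 180 and 829 normalized counts in NC Mes, 291, 243 and 1771 in HFD Mes, 419, 2864 and 185 in NC Epi and 1873, 2370 and 7505 in HFD Epi. H2-DMb1 had 179, 194 and 317 in NC Mes, 596, 338 and 1769 in HFD Mes, 399, 3152 and 193 in NC Epi and 2578, 3292 and 11514 in HFD Epi. H2-DMb1 was the only member whose 3 HFD Mes libraries all lay above the 3 NC Mes libraries. Of the 150-base windows along H2-DMb1 exons, 4.71% (72 of 1529) also occur in its neighbour H2-DMb2, so reads of these parts could be assigned to either gene.

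Ciita, the transactivator, had 52.4, 50.2 and 54.9 normalized counts in NC Mes, 39.3, 76.2 and 406 in HFD Mes, 24.3, 177 and 48.0 in NC Epi and 227, 129 and 487 in HFD Epi. Its NC Mes libraries were close together (52.5 ± 2.37, SD, n = 3), including replicate C, in which the other 6 members were all above replicates A and B.

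**Figure D1:**
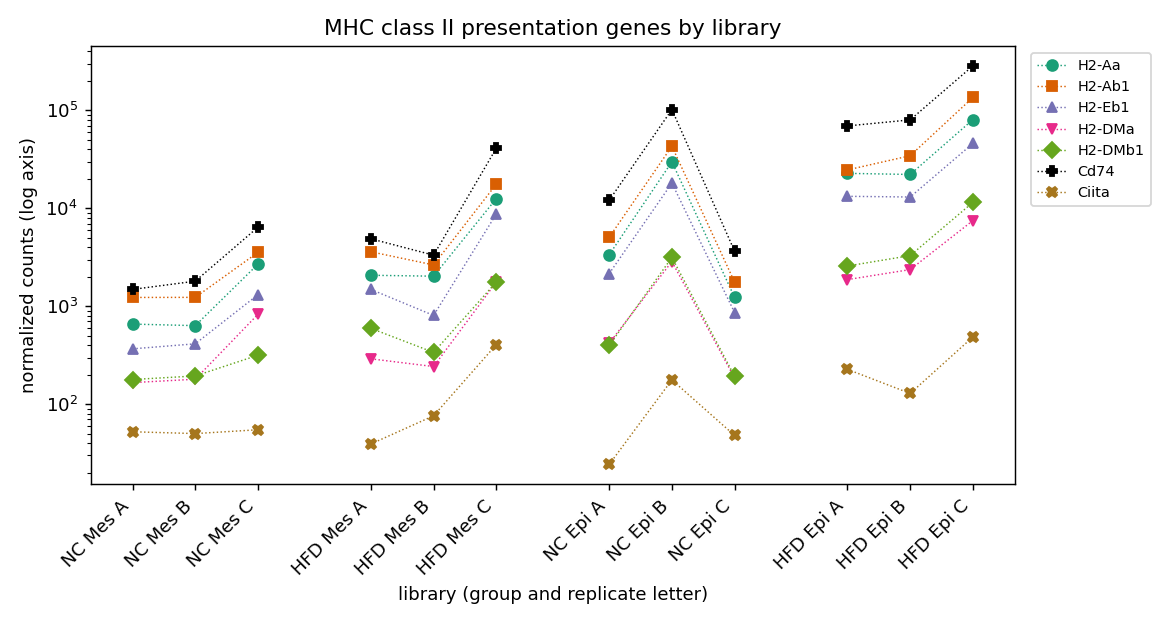
Normalized counts of the 7 class II genes (log axis) in each of the 12 libraries, 1 line per gene and 1 point per library, ordered by group. HFD Mes C and NC Epi B lie above the other libraries of their groups for each of the 7 genes, and Ciita spans 20.1-fold against 191-fold for Cd74.

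Levels of different genes were compared per kilobase of annotated exon (GENCODE M21). The median over the HFD Epi libraries was 47674 normalized counts per kilobase for Cd74, 13412 for H2-Ab1, 6824 for H2-Eb1, 5992 for H2-Aa, 1958 for H2-DMb1, 687 for H2-DMa and 23.8 for Ciita. In the order of these values Cd74 exceeded H2-Ab1, H2-Ab1 exceeded H2-Eb1, H2-Aa exceeded H2-DMb1 and H2-DMa exceeded Ciita in 12 of 12 libraries. H2-Eb1 was above H2-Aa in 10 of 12 libraries and H2-DMb1 above H2-DMa in 11 of 12, so those neighbours were not separated in each library. The length counts every annotated exon base, which lowers the value of genes with long minor isoforms. The 7 genes together held 0.0219% of the normalized counts of NC Mes A and 3.15% of those of HFD Epi C, with 35.1% to 51.5% of the members' sum in Cd74.

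The comparison of diets in mesentery asked what the high fat diet changed in that vascular bed. None of the 7 genes passed an adjusted p of 0.05 in limma (0 of 7, and 0 of 7 at an unadjusted p under 0.05), beside 0.0135% of all genes tested. edgeR on the recovered reads called 0 of 7, and DESeq2 called 0 of 5, having given no adjusted p for H2-Aa and H2-Eb1 in any comparison. The fitted differences, HFD minus NC on the log2(normalized count + 1) scale, ran from 0.77 for H2-DMa to 1.90 for H2-Eb1, with a median of 1.67 beside -0.0023 over all genes. For H2-DMb1, the 1 of 7 without overlap between the groups (4.47% of all genes were higher without overlap), the difference was 1.67 with a 95% interval of -0.22 to 3.55 and an adjusted p of 0.868. For Cd74 it was 1.76 (adjusted p = 0.907) and for Ciita 1.02 (adjusted p = 0.940). HFD Mes C carried much of these values: without it the median difference was 0.81 and that of H2-DMa was -0.14. That library also had 3238 normalized counts of Cd79a, a B cell receptor chain, against 23 to 110 in the other mesentery libraries, and 1461 of Ptprc, the pan-leukocyte marker CD45, against 17 to 420. The macrophage and leukocyte markers had a median difference of 1.92, with 9 of 10 above 0, 5 of 10 at an unadjusted p under 0.05 and 0 of 10 called in limma, and a median of 1.44 without HFD Mes C. DESeq2 called Csf1r. The part of these markers' cells in the class II values was not tested.

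In epididymal fat the fitted diet differences ran from 2.01 for Ciita to 2.88 for H2-DMb1, with a median of 2.74 beside 0.095 over all genes. The members' median was 1.83 in edgeR and 1.87 in DESeq2, against 2.04 and 1.99 for the diet in mesentery, so the beds are not ranked by it. No member passed the adjusted threshold (0 of 7, beside 0.549% of all genes), whereas 7 of 7 had an unadjusted p under 0.05 against 6.94% of all genes. edgeR and DESeq2 called 0 members. H2-DMb1 came nearest, with a difference of 2.88 (95% interval 1.00 to 4.77, adjusted p = 0.24). H2-Aa differed by 2.79 (0.56 to 5.02, adjusted p = 0.449) and Cd74 by 2.82 (0.38 to 5.26, adjusted p = 0.541). In each of the 7 genes the groups overlapped (0 of 7 were higher without overlap, beside 6.93% of all genes), because NC Epi B was as high as HFD Epi libraries while NC Epi A and C were below all 3 of them. Without NC Epi B the median difference was 4.03, and H2-DMb1 passed with an adjusted p of 0.0217, at a difference of 4.05. Without NC Epi C the median was 1.73. The sum of the macrophage and leukocyte markers was 86603 in NC Epi B, 11119 and 6155 in NC Epi A and C, and 136760 or more in HFD Epi. Their median difference was 3.13, 8 of 10 were higher without overlap, and 0 of 10 passed the adjusted threshold in limma (8 of 10 at an unadjusted p under 0.05). DESeq2 called Cd68, and without NC Epi B limma called C1qb, Cd68 and Lyz2. Their part in the class II values was not tested.

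**Figure D2:**
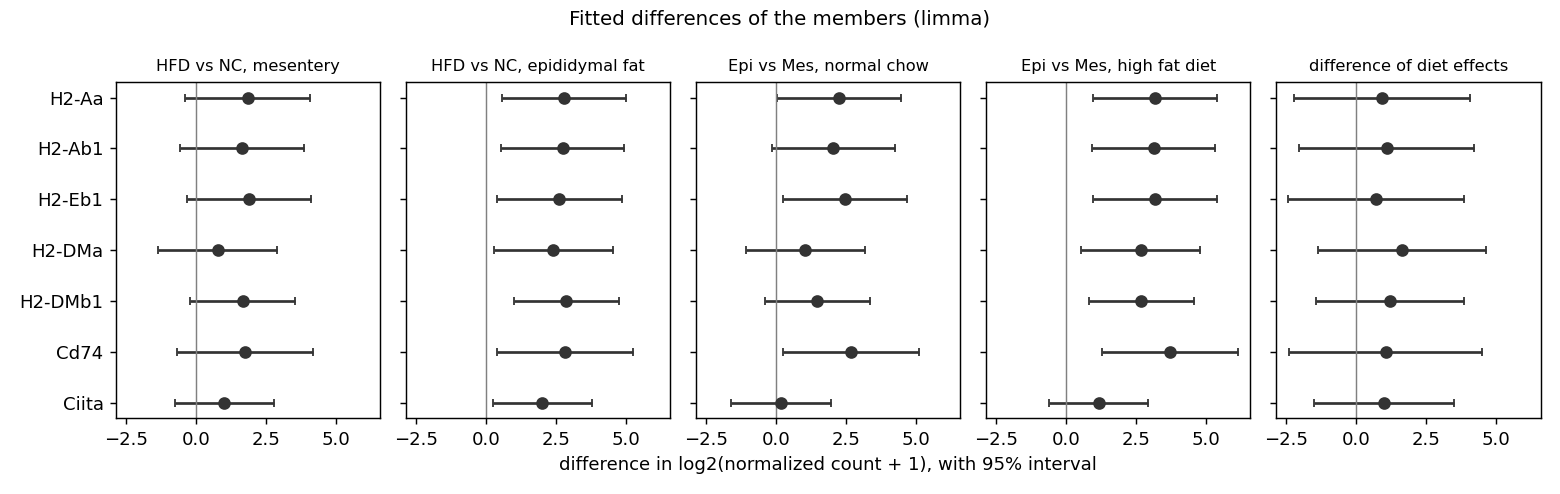
Fitted log2 differences of the 7 genes with 95% intervals in the 5 comparisons, 1 panel each, from limma on log2(normalized count + 1). All points lie above 0. The intervals of all 7 genes cross 0 in the mesentery diet panel and in the difference of diet effects, and none does in the epididymal diet panel.

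The tissue comparisons asked how the 2 beds differ on each diet. On chow, Epi minus Mes differences ran from 0.18 for Ciita to 2.68 for Cd74, with a median of 2.05 beside -0.075 over all genes. None passed in limma (0 of 7, beside 12.8% of all genes), 3 of 7 had an unadjusted p under 0.05 (25.4% of all genes), edgeR called 0 and DESeq2 called 1, Cd74. The groups overlapped in each of the 7 genes (0 of 7 higher without overlap, beside 16% of all genes), since NC Mes C lay above NC Epi C for each member and NC Epi B lay above all NC Mes libraries. Without NC Epi B the median was 0.77, and H2-DMa and Ciita differed by -0.069 and -0.60. Without NC Epi C the median was 3.07 and 3 members passed. In the same comparison 5 of 10 macrophage and leukocyte markers rose, with a median difference of 3.15 (1, Csf1r, without NC Epi B and 8 without NC Epi C). Adipocyte markers rose in 6 of 6 and mural cell markers in 4 of 5, while 7.32% of all genes rose. Of 10 endothelial markers 5 fell, Pecam1 among them, and 2 rose, Cldn5 and Vwf, while 5.47% of all genes fell. The part of these markers in the class II values was not tested.

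On the high fat diet, 6 of the 7 genes were higher in each HFD Epi library than in each HFD Mes library, beside 15.1% of all genes; Ciita overlapped. The fitted difference was largest for Cd74, at 3.74 (95% interval 1.30 to 6.18, adjusted p = 0.0610). It was 3.19 for H2-Aa (adjusted p = 0.0792), 3.14 for H2-Ab1 (adjusted p = 0.0818), 3.19 for H2-Eb1 (adjusted p = 0.0798), 2.7 for H2-DMb1 (adjusted p = 0.0795), 2.68 for H2-DMa (adjusted p = 0.124) and 1.17 for Ciita (adjusted p = 0.50). No member therefore passed (0 of 7, beside 8.34% of all genes), while 6 of 7 had an unadjusted p under 0.05 (21% of all genes), and edgeR and DESeq2 called 0. Leaving out HFD Mes C gave a median of 3.98 and 6 members past the threshold. A fit of only the groups compared called 5, and a filter at a mean of 50, or the number range of the labels as a covariate, called 1. Of the macrophage and leukocyte markers, 8 of 10 rose in the same comparison (4.91% of all genes did), with Csf1r, the receptor for macrophage colony stimulating factor, higher by 4.37 (adjusted p = 0.00453). Without HFD Mes C it was again 8 of 10, and edgeR called 5. Of the endothelial markers 6 of 10 fell (3.43% of all genes did) and 1 rose. Their part in the class II difference was not tested.

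The diet effect in epididymal fat minus that in mesentery was 0.72 for H2-Eb1 to 1.63 for H2-DMa, with adjusted p of 1.000 for all 7 members. None passed (0 of 7 in limma and edgeR, 0 of 5 in DESeq2, and 0 of 7 at an unadjusted limma p under 0.05), beside 0.0045% of all genes. The differences of H2-Aa, H2-Ab1, H2-Eb1 and Cd74 were negative in edgeR and DESeq2, and that of Ciita in edgeR. No direction is given for these genes. These comparisons share libraries with the diet comparisons and add no separate evidence.

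The 7 genes were among the most variable of the table within groups. The pooled within-group SD on the log2 scale was 1.75 for Cd74, 1.61 for H2-Aa and H2-Eb1, 1.59 for H2-Ab1, 1.54 for H2-DMa, 1.36 for H2-DMb1 and 1.22 for Ciita. Each was above that of at least 95.8% of the 10585 genes with a mean of 100 or more, whose median was 0.325. Over the 12 libraries the 6 genes other than Ciita followed each other with a Pearson r of 0.957 to 0.997 in 15 pairs, and with 0.946 to 0.996 after group means were removed. Ciita followed them with an r of 0.803 to 0.844 in 6 pairs. These values share libraries and normalization and are descriptions.

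Ratios between the chain genes within a library show the same closeness, while those of the H2-DM genes and Ciita to Cd74 varied more. H2-Aa over H2-Ab1 stayed between 0.514 and 0.922, a range of 1.79-fold, and H2-Eb1 over H2-Ab1 between 0.299 and 0.538. H2-Aa over Cd74 ranged 2.20-fold and H2-Ab1 over Cd74 2.33-fold. The ratio of H2-DMa to Cd74 ranged 4.90-fold, with 0.0998 to 0.129 in NC Mes and 0.0264 to 0.0296 in HFD Epi. For H2-DMb1 over Cd74 the range was 3.95-fold, and for H2-DMa over H2-DMb1, without Cd74, it was 5.36-fold. The ratio of Ciita to Cd74 ranged 21.9-fold, highest in NC Mes A and lowest in HFD Epi B. Against markers of other cells, Cd74 over Lyz2, which encodes the lysozyme of myeloid cells, ranged 5.45-fold. Over Csf1r it ranged 11.7-fold, over Ptprc 16.5-fold and over Cd68, another of the macrophage markers, 21.9-fold. Over Cd79a it ranged 138-fold and over the endothelial gene Pecam1 482-fold.

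**Figure D3:**
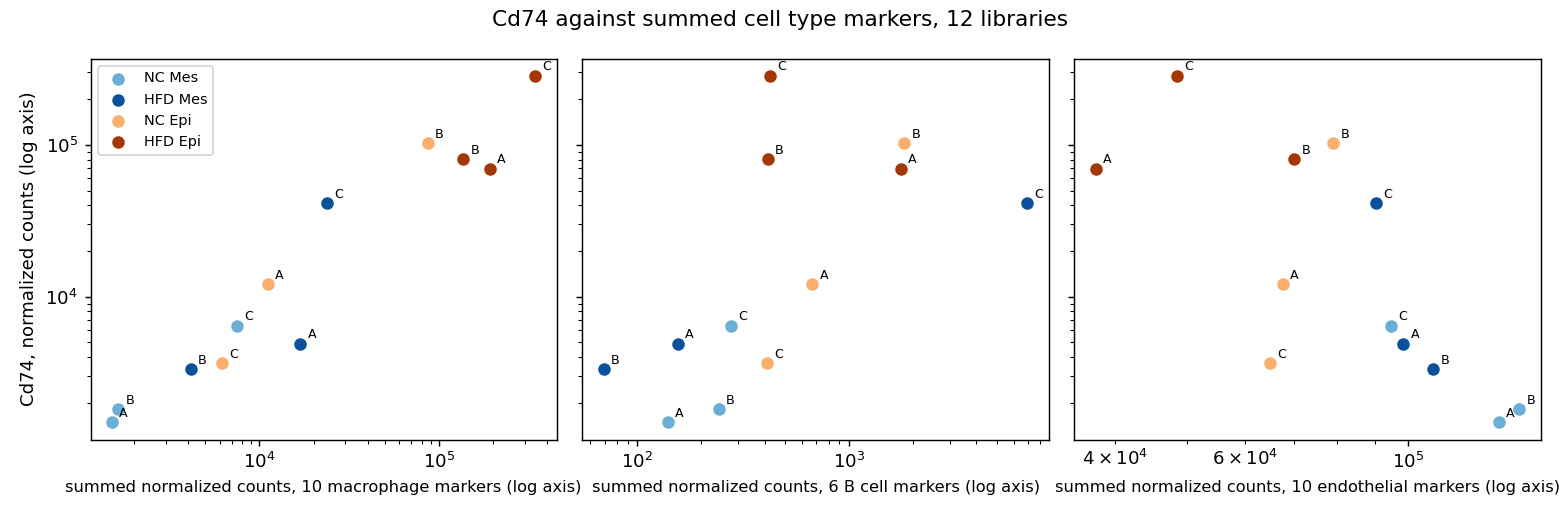
Normalized counts of Cd74 against the summed normalized counts of 10 macrophage and leukocyte, 6 B cell and 10 endothelial marker genes, on log axes, 1 point per library coloured by group and lettered by replicate. HFD Mes C lies far to the right in the B cell panel (6960), and the endothelial sum spans 3.76-fold while Cd74 spans 191-fold.

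Of 9975 genes averaging 100 normalized counts or more, counting named genes that are not members or predicted models, the 10 most like the mean log2 level of H2-Aa, H2-Ab1, H2-Eb1 and Cd74 over the 12 libraries were Coro1a (r = 0.986), Cotl1, Rac2, Ear2, Selplg, Laptm5, Ncf4, Ccl6, Cfp and Lyz2 (r = 0.969). Coro1a encodes a leukocyte actin regulator, Rac2 a haematopoietic GTPase and Ncf4 a subunit of the phagocyte oxidase. On the same measure Csf1r had an r of 0.928, Ptprc 0.852, Cd79a 0.602, Irf1 -0.623 and Pecam1 -0.681. After group means were removed, Irf1 had 0.409 and Pecam1 0.203. Other endothelial genes went the other way, with 0.727 for Cldn5 and 0.629 for Vwf over the 12 libraries. The 5 genes most like Ciita were Pclaf (r = 0.920), Man1a, Pik3ap1, Cytip and Septin6 (r = 0.891).

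Other class II chain and chaperone genes, H2-Oa, H2-Ob, H2-Ea, H2-Eb2 and H2-DMb2, gave 0 of 5 past the threshold in each comparison. H2-DMb2, the second beta chain gene of H2-DM, had 60.4, 103 and 29.6 normalized counts in NC Mes, 122, 133 and 1064 in HFD Mes, 185, 1009 and 143 in NC Epi and 485, 448 and 1295 in HFD Epi. It was thus highest in the same library of each group as the members, except in NC Mes, where replicate C was lowest. H2-Ob, which restrains H2-DM in B cells, was highest in HFD Mes C, at 478 normalized counts, against 168, 48.7 and 160 in HFD Epi. H2-Ea and H2-Eb2 stayed at or below 104 in all libraries.

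Of the interferon gamma route to Ciita, 7 genes were read. Their sum ranged 1.69-fold over the 12 libraries, and single genes from 1.61-fold for Jak1 to 3.54-fold for Socs1. In limma 0 of 7 passed in either diet comparison, and DESeq2 called Ifngr2 higher in HFD Epi than in NC Epi. Irf1, the factor that acts on the Ciita promoter, had 2868 or more normalized counts in each mesentery library and 2447 or fewer in each epididymal library. It fell in epididymal fat against mesentery, by 0.75 on the log2 scale on chow (adjusted p = 0.0202) and by 0.99 on the high fat diet (adjusted p = 0.00656). Of all genes, 5.47% fell between tissues on chow and 3.43% fell on the high fat diet, while 7.32% rose on chow. Irf2 fell likewise, by 0.99 (adjusted p = 0.00313) and 0.65 (adjusted p = 0.0436), and Ifngr2 fell on chow. The endothelial markers had median tissue differences of -0.92 under chow and -1.04 with high fat feeding. Those above 0 were 4 of 10 and 3 of 10. The part of endothelial cell content in the falls of Irf1, Irf2 and Ifngr2 was not tested. The call of Irf1 on chow was lost without NC Epi B, without NC Epi C and in edgeR, which called only Irf2 on chow, with 0 of 7 called on the high fat diet. Without HFD Mes C the call of Irf2 on the high fat diet was lost. Of the 7 factors of class II promoters, Rfxap rose by 1.72 (adjusted p = 0.00282) and Creb1 fell by 0.89 (adjusted p = 0.0222) in epididymal fat on chow, and 0 of 7 passed in limma in the other comparisons. DESeq2 also called Rfxap between tissues on the high fat diet. Creb1 was not called in edgeR or without NC Epi C. Rfx5, the DNA-binding subunit of the RFX complex, stayed between 33.7 and 87.3 normalized counts.

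Class I presentation genes, which serve CD8 T cells and are made by nearly all nucleated cells, were steadier than class II. Their sum ranged 1.70-fold, and 0 of 10 passed in either diet comparison. H2-K1, a class I heavy chain, stayed between 20430 and 38169 normalized counts, while H2-Ab1 over H2-K1 ranged 100-fold. In epididymal fat against mesentery, Nlrc5, the class I transactivator related to Ciita, fell by 1.18 on chow (adjusted p = 0.0182), Tap1 by 1.03 on chow (adjusted p = 0.0265) and by 1.11 on the high fat diet (adjusted p = 0.0260), and Tap2 by 0.96 on the high fat diet (adjusted p = 0.0294). edgeR called Nlrc5 alone on chow, with 0 of 10 called on the high fat diet. The Tap1 calls were lost on chow without NC Epi B or C, and on the high fat diet without HFD Mes C. Median tissue differences of the endothelial markers were -0.92 under chow (4 of 10 above 0) and -1.04 with high fat feeding (3 of 10). The part of endothelial cell content in the falls of Nlrc5, Tap1 and Tap2 was not tested.

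Proteases and reductases that prepare peptides and degrade the invariant chain were, of the 7 pathway lists, the one with limma calls between diets. In epididymal fat, 4 of 7 rose on the high fat diet (0.418% of all genes did) and none fell: Ctsb by 2.81 (adjusted p = 0.00426), Ctsl by 1.5 (adjusted p = 0.00590), Ctsd by 2.45 and Lgmn by 2.49 (both adjusted p = 0.00837). Their median difference was 2.49, beside 0.095 over all genes. Ctsl had 12641, 12806 and 11226 normalized counts in NC Epi and 41051, 27595 and 36252 in HFD Epi, with no overlap. The same 4 genes were called by edgeR and without NC Epi C, and without NC Epi B Ctss and Ifi30 passed as well. Ctss, the protease that trims the invariant chain in antigen-presenting cells, differed by 4.12 (adjusted p = 0.0916), and Ifi30, the lysosomal thiol reductase GILT, by 2.66 (adjusted p = 0.0886). Of these 7 genes, 0 passed between diets in mesentery (2 at an unadjusted p under 0.05). In epididymal fat against mesentery 3 rose on chow (1, Lgmn, in edgeR and without NC Epi B), beside 7.32% of all genes. On the high fat diet 7 rose there (5 in edgeR), beside 4.91% of all genes. These lysosomal enzymes are not private to class II presentation, and the macrophage and leukocyte markers, summing to 136760 to 344927 normalized counts, were also highest in HFD Epi. Their part in these changes was not tested.

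Of 6 costimulatory genes, 0 passed in either diet comparison and Icosl rose in epididymal fat on chow, by 3.48 (adjusted p = 0.0104). Cd86, a costimulatory ligand of antigen-presenting cells, had 12.5, 10.8 and 152 normalized counts in NC Mes, 104, 31.9 and 156 in HFD Mes, 86.1, 288 and 58.2 in NC Epi and 280, 241 and 687 in HFD Epi. It was highest in the same library of each group as Cd74. Marchf1, the ligase that removes class II molecules from the surface, was at 0 in HFD Mes B and reached 265 in HFD Epi C.

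**Figure D4:**
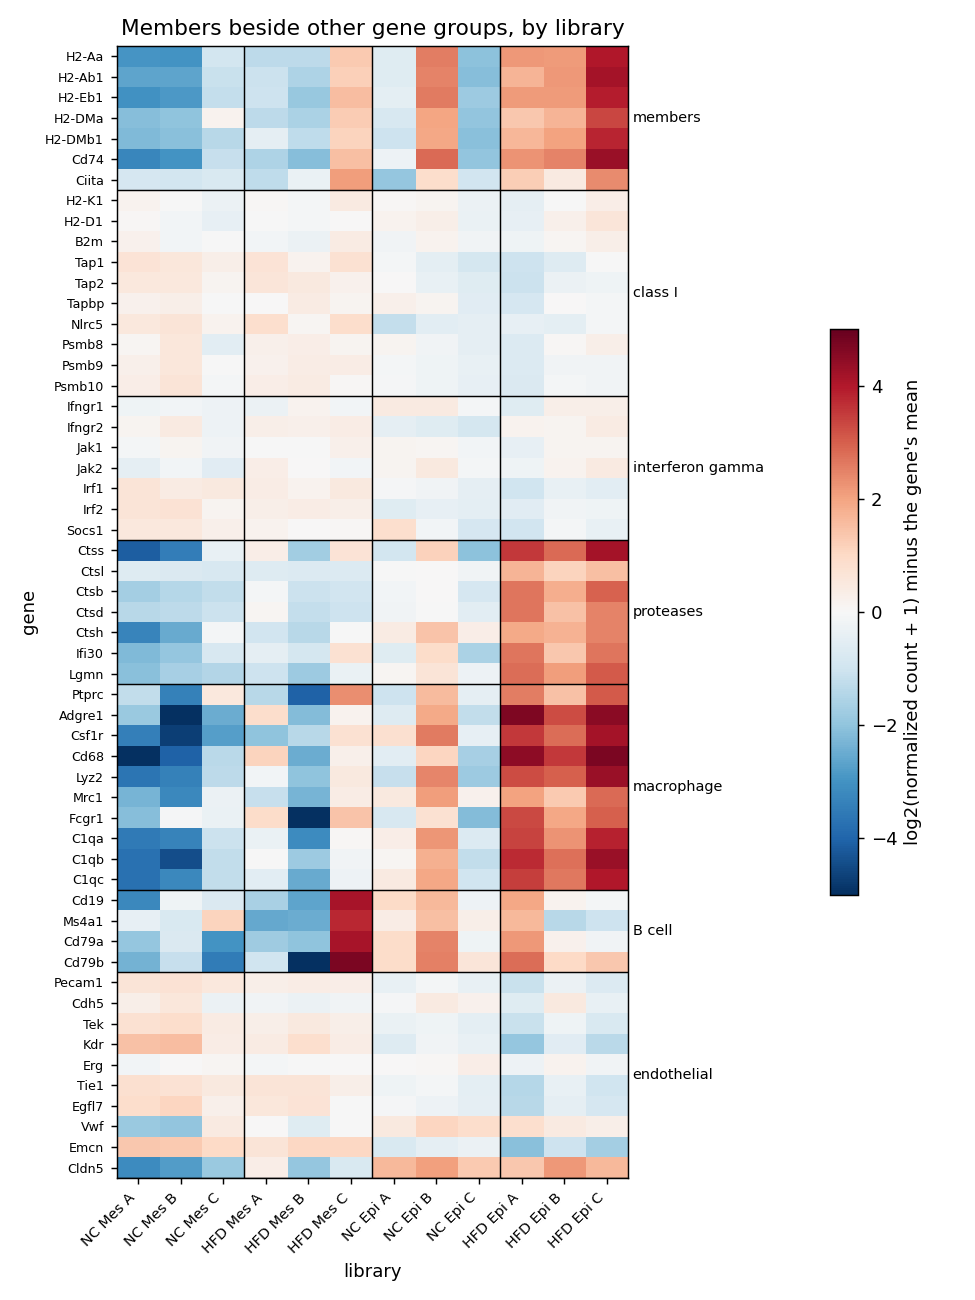
Colour gives log2(normalized count + 1) minus the gene's mean over the 12 libraries, for the 7 class II genes and 6 other gene lists (rows) by library (columns). Class II genes and macrophage markers are red in HFD Epi A to C and in NC Epi B. The class II genes are also above their means in HFD Mes C, where macrophage markers are mixed and B cell markers are darkest. Class I and interferon gamma genes stay pale.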

How the data were processed

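Sorted cells were sequenced as bulk RNA in 12 libraries. The labels number each library, and each number occurs once in each tissue. Whether a number marks the same mice is not stated. The authors deposited 1 table of normalized counts (a signal of 0 or more for each gene); per the submitters' processing notes STAR 2.7.9a, featureCounts, Subread, DESeq2 1.34.0 and mm39 were used, in roles those notes do not give. Which annotation and strand setting were used is not given in the sources used here. All deposited values were whole reads times a step per library (100% within 0.01), and the lowest total of a listed gene was 51 reads. Groups came from the sample titles.

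limma 3.58.1 (R 4.3.3, lmFit and eBayes with trend) was run on log2(normalized count + 1), which understates the change of low genes, with 4 group means over 22238 genes with a mean of at least 10. P-values were adjusted by Benjamini-Hochberg over all genes tested in a comparison, with a threshold of 0.05. The script was tested on simulated data. Alternatives were edgeR 4.0.16 and DESeq2 1.42.0 on recovered reads, pseudocounts of 0.5 and 5, no filter or a mean of at least 50, equal library totals, blocks, subsets and libraries left out. The same tools, scaling and left-out libraries were applied to the counts in the other gene lists, a choice made after seeing the data. The members and gene lists were chosen with earlier results of these data known. Genes named are the members, listed genes past the threshold, and a set of pathway and marker genes. The 10 and 5 genes most like the members and Ciita were also named. Cd79b, Pax5 and Fcgr1, Lyz2 in ratios and sums, and Cd68 in ratios were named after their values were seen. A listed gene is not reported here, and its list's values leave it out.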

Additional observations from a re-analysis of the deposited data

How the results depend on the processing

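With 3 libraries per group and a within-group SD of 1.22 to 1.75 on the log2 scale, 1 library can move a member's difference past the threshold or across 0; no member had fewer than 31 reads in a library. In mesentery between diets 0 members were called under all 17 alternatives, and for the difference of the diet effects 0 under all 22. For the diet in epididymal fat, leaving out a library gave 0 to 1 members (1 without NC Epi B). For tissue on chow, DESeq2 gave 1, and the libraries numbered 50 to 53 alone gave 4. That subset leaves out replicate C of NC and replicate A of HFD. Leaving out a library gave 0 to 3 (3 without NC Epi C). For tissue on the high fat diet, a mean of at least 50 gave 1, the number range as a covariate 1, a fit of only the groups compared 5, and leaving out a library 0 to 6 (6 without HFD Mes C). Where a left-out library leaves 2, the spread is pooled over all groups.

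Differences below 0 arose as follows. Leaving out a library gave H2-DMa -0.14 to 1.53 in mesentery between diets, and -0.069 to 1.90 for H2-DMa and -0.60 to 0.81 for Ciita between tissues on chow. It gave -0.070 to 2.23 for H2-Aa, -0.23 to 1.97 for H2-Eb1 and -0.028 to 2.37 for Cd74 in the difference of the diet effects. There edgeR gave -0.29 for H2-Aa, -0.096 for H2-Ab1, -0.71 for H2-Eb1, -0.55 for Cd74 and -0.019 for Ciita. DESeq2 gave -0.19, -0.016, -0.62 and -0.45 for H2-Aa, H2-Ab1, H2-Eb1 and Cd74, and the libraries numbered 50 to 53 gave -0.89, -0.26, -0.79 and -0.73. The cause was not tested.

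Over the alternatives, genes called ranged from 1 to 154 for the diet in mesentery (3 in limma), 23 to 546 for the diet in epididymal fat (122), 1516 to 4349 and 728 to 2931 for tissue on chow and under high fat feeding (2843 and 1854), and 1 to 133 for the difference (1). Equal library totals moved the median of all genes by 0.13, -0.14, 0.082, -0.18 and -0.27 in the 5 comparisons in that order, and the members' median was then 1.80, 2.60, 2.14, 2.95 and 0.78.

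The labels' numbers did not pair the samples by the criterion of every pair above 0.1. Deviations from group means correlated between -0.15 and 0.58 in the 6 pairs with the same number. In the 6 with the same letter these correlations ran from -0.68 to 0.44. Replicate C of NC and replicate A of HFD are numbered 87 and 88 in both tissues, above all other libraries. NC Epi C and HFD Epi A, of different diet, letter and number, correlated at 0.838. With the lower-numbered epididymal libraries of the other diet they gave -0.675 to -0.625. Those lower-numbered libraries gave 0.436 to 0.594 across diets. NC Mes C and HFD Mes A gave -0.0022. What the number range stands for was not tested. With the replicate block, 4 members were called for tissue on the high fat diet and 0 in the other comparisons, and 4, 104, 2816, 1890 and 2 genes were called in the 5 comparisons in the order above.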

Other observations

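Markers of other cell types were also read beside the class II genes. The sum of 6 T cell markers ran from 103 to 793 normalized counts in NC Mes, 180 to 1256 in HFD Mes, 139 to 328 in NC Epi and 356 to 1727 in HFD Epi, with Cd4 at 0 in NC Mes B and Cd8a at 0 in all 3 NC Mes libraries and HFD Mes B. None of the 6 passed the limma threshold in any comparison (0 of 6, with at most 1 at an unadjusted p under 0.05); DESeq2 called Cd8a for the diet in mesentery. The sum of 8 dendritic cell markers spanned 4.47-fold, from 1094 in NC Epi A to 4891 in HFD Epi C. Zbtb46, described below, held 758 of it in NC Epi A, 633 in HFD Epi C and 1705 of 2071 in NC Mes A. Among the genes above 0 in every library, single genes ranged from 4.24-fold for Zbtb46 to 371-fold for Clec10a. Of these 8 genes, 6 had a difference above 0 between tissues on either diet, with medians of 2.16 on chow and 1.98 with high fat feeding. Clec10a rose by 4.58 (adjusted p = 0.00119) and 4.18 (adjusted p = 0.00338) in those comparisons, and Clec9a fell on chow by 1.47 (adjusted p = 0.0305). Zbtb46, a factor of classical dendritic cells that endothelial cells also express, fell in epididymal fat against mesentery by 1.02 on chow (adjusted p = 0.00688) and 1.20 on the high fat diet (adjusted p = 0.00389).

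Adipocyte markers did not follow the members: their 6 genes summed to 63085 to 85648 in NC Epi and 3938 to 13910 in HFD Epi. Of these, 3 of 6 fell on the high fat diet, namely Cfd, Retn and Adipoq (edgeR called Cfd and Retn). Of all genes, 0.549% were called in either direction. Fibroblast markers summed to 17192 to 54451 in NC Epi and 37039 to 53141 in HFD Epi. The fibroblast markers' median diet difference there was 1.80, and 3 of 5 were higher without overlap, beside 6.93% of all genes. Lum rose by 2.30 (adjusted p = 0.0135, not called by edgeR), 1 of 5 beside 0.418% of all genes. All 5 of 5 rose in epididymal fat against mesentery on either diet (3 on chow without NC Epi B).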
